A study of Brassica rapa subsp. pekinensis with 6 samples.

Results

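The genes described here are *TIL* (*Bra020391*), which encodes a temperature-induced lipocalin, and 3 late embryogenesis abundant (LEA) genes, *Bra027219*, *Bra030494* and *Bra022950*, in flower buds of Chinese cabbage. They are the *TIL* gene and the LEA genes that the study names by identifier among its differentially expressed genes (DEGs), and make up 4 of the 35616 genes with at least 1 read. Because the genes were chosen for their difference between the lines compared here, that difference is given as a description and not as a test. The study describes *Bra027219* as a group 3 LEA protein, *Bra030494* as LEA14 and *Bra022950* as a putative LEA protein.

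The study compared the female-sterile mutant *fsm* with the wild-type line ‘FT’ by RNA-Seq, with 3 libraries of each, M1, M2 and M3 for *fsm* and F1, F2 and F4 for ‘FT’. ‘FT’ is a doubled haploid. From it, *fsm* was derived by culturing isolated microspores with the mutagen ethyl methanesulfonate, so that *fsm* is a single mutant line and may carry further mutations of the same treatment. Both lines were sampled as whole flower buds at full bloom, with no treatment of the plants stated, and each replicate mixed the buds of several plants. The methods also state that equal amounts of RNA of the replicates were pooled before the libraries were made, so the spread between libraries of a line may be partly technical. The study gives the same month of collection for the buds of both lines. No source used here gives a batch or a date of library preparation, and any batch that followed the lines cannot be told apart from them.

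Lipocalins are small proteins folded into a barrel that holds a hydrophobic molecule. In *Arabidopsis*, the temperature-induced lipocalin sits at cell membranes, its transcript accumulates in heat and cold, and plants that lack it are more sensitive to heat and to oxidative damage. LEA proteins were first found late in seed maturation. Most are very hydrophilic, lack a fixed fold in water, and are known for guarding membranes and other proteins while cells lose water in seeds, pollen and stressed tissues. Group 3 LEA proteins carry a repeated motif that forms helices upon drying, and LEA14 proteins are an atypical group with a stable fold and a more hydrophobic character.

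The primers that the study designed for *Bra020391* are shown because they are the sequences it assigns to *TIL*. Whether they match the gene whose reads were counted was not checked, since no sequence of the gene was used here. The capitals mark the triplet ATG, the letters of a start codon, which begins at base 5 of the forward primer. Whether it is the start codon of the gene was not examined. The reverse primer is given in its own 5′ to 3′ direction.

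TIL forward primer: aaagATGacgacgcagaataaag

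TIL reverse primer: tcagggttgagggtgtaggtg

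The forward primer has 23 bases and the reverse primer 21 bases. The study used them for quantitative PCR of *TIL*, which it counts among its DEGs related to pistil development. It reports similar trends by PCR and RNA-Seq for the DEGs it selected, *TIL* among them. That PCR is not analysed here. All values below are reads of the sequenced libraries, either as reads per gene or as RPKM (reads per kilobase of coding length and per 1000000 reads of the library), and only RPKM is used to compare levels between genes.

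In units of 1000000 reads, the libraries held 28.1 to 29.4 in *fsm* and 25.0 to 25.4 in ‘FT’. Libraries of a line resembled each other far more than libraries of different lines, with a correlation across genes of 0.997 within lines and of 0.852 to 0.855 between lines. Genes are not independent replicates, so these correlations only describe the libraries. Libraries of a line still differed by more than the counting noise of independent reads, with a chi-square of 3.01 to 7.37 per gene. None was therefore counted as a repeat of another. Sequencing was paired-end, from both ends of a fragment, and where both ends were counted the noise of counting alone is higher. The buds of both lines contained transcripts of the pollen list, 22 genes of pollen and pollen tubes, at a summed 257 to 295 RPKM in *fsm* and 5816 to 5881 RPKM in ‘FT’, and no gene of that list was at 0 in all libraries of a line. The list was drawn from DEGs of the study, called on these same libraries. A large difference of its genes between the lines follows from that choice and is no measure of pollen content. In whole buds, fewer cells of a type and less RNA per cell cannot be told apart.

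*TIL*, *Bra027219* and *Bra030494* were far higher in *fsm* than in ‘FT’, and *Bra022950* was far lower in *fsm*. The lines did not overlap for any of the 4 genes, and all 4 passed the DEG threshold, an adjusted p of 0.001 or less and a log2 fold change of 4 or more in either direction. These limits are those of the study, which applied them with DESeq, whereas here they were applied to edgeR's quasi-likelihood test with p-values adjusted by the Benjamini-Hochberg method. With limma on log2(RPKM + 1), *Bra030494* at 3.95 and *Bra022950* at -3.69 no longer reached the limit of 4. Of all 35616 genes, 5.26% passed that threshold, 2.91% higher and 2.34% lower in *fsm*, 36.7% passed at a log2 fold change of 1 or more in either direction, and 75.0% had lines that did not overlap, 37.5% in each direction. The 4 genes were selected as DEGs of this comparison, so nothing is read from their count. The log2 fold changes were 6.93, 5.72 and 5.59 for the 3 genes that were higher and -4.95 for *Bra022950*, which lay closest to the threshold. The median log2 fold change of all genes was -0.02.

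*TIL*, with a coding length of 750 bases, had 2237, 1753 and 1866 reads in M1, M2 and M3, against 12, 16 and 16 reads in F1, F2 and F4. As RPKM, its level was 102, 82.0 and 88.5 in the *fsm* libraries and 0.630, 0.851 and 0.854 in the ‘FT’ libraries. The lowest *fsm* library, M2, thus still exceeded every ‘FT’ library by far, and within ‘FT’ the 3 levels lay close together. The mean RPKM was 90.7 ± 9.97 in *fsm* and 0.778 ± 0.128 in ‘FT’ (SD, n = 3 each). The fitted difference was 122-fold, or 6.93 on the log2 scale, the 189th largest increase of all genes. Among the genes of each library ordered by RPKM, *TIL* lay at percentile 92.8 to 94.2 in *fsm* and at percentile 15.5 to 17.8 in ‘FT’, so it was among the abundant bud transcripts of the mutant and among the scarce ones of the wild type. From the summed 5856 and 44 reads, the ratio of *fsm* over ‘FT’ was 123. Its exact 95% interval of 91.3 to 169 covers counting error only and treats reads as independent, as do the counting intervals below. Such intervals are too narrow where both ends of a fragment were counted.

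*Bra027219*, the group 3 LEA gene of 690 bases, had 661, 638 and 659 reads in M1, M2 and M3, against 19, 11 and 4 in F1, F2 and F4. The RPKM was 32.6, 32.4 and 34.0 in *fsm* and 1.08, 0.636 and 0.232 in ‘FT’. The *fsm* libraries were almost equal, whereas in ‘FT’ the highest library had 4.65 times the normalized count of the lowest. Mean RPKM was 33.0 ± 0.834 in *fsm* and 0.651 ± 0.426 in ‘FT’ (SD, n = 3 each). The fitted difference was 52.6-fold, or 5.72 on the log2 scale, and the ratio of summed reads of *fsm* over ‘FT’ was 53.1 (exact 95% counting interval 37.9 to 76.9).

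*Bra030494*, described as LEA14 and 456 bases long, had 331, 220 and 304 reads in M1, M2 and M3, against 7, 6 and 3 reads in F1, F2 and F4. This gave an RPKM of 24.7, 16.9 and 23.7 in *fsm* and of 0.604, 0.525 and 0.263 in ‘FT’. M2 stood below the other *fsm* libraries, and all ‘FT’ values rested on single-digit read numbers. The mean RPKM was 21.8 ± 4.24 in *fsm* and 0.464 ± 0.178 in ‘FT’ (SD, n = 3 each). The fitted difference was 48.2-fold, or 5.59 on the log2 scale. The ratio of summed reads of *fsm* over ‘FT’ was 49.3, with an exact 95% counting interval of 30.2 to 86.6.

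*Bra022950*, the putative LEA gene, is the shortest of the 4 with 216 bases and went the other way. It had 3, 7 and 0 reads in M1, M2 and M3, against 86, 121 and 88 in F1, F2 and F4. The RPKM was 0.473, 1.14 and 0 in *fsm* and 15.7, 22.3 and 16.3 in ‘FT’. All *fsm* libraries were near or at the detection limit, and F2 was the highest of the ‘FT’ libraries. The mean RPKM was 0.537 ± 0.571 in *fsm* and 18.1 ± 3.68 in ‘FT’ (SD, n = 3 each). The fitted difference was -4.95 on the log2 scale, a 30.8-fold lower level in *fsm*. With only 10 reads in *fsm* and 295 in ‘FT’, the ratio of ‘FT’ over *fsm* from summed reads was 32.0 with an exact 95% counting interval of 17.1 to 67.4. M2 held most of the *fsm* reads, and without it the log2 fold change was -6.04.

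**Figure D1:**
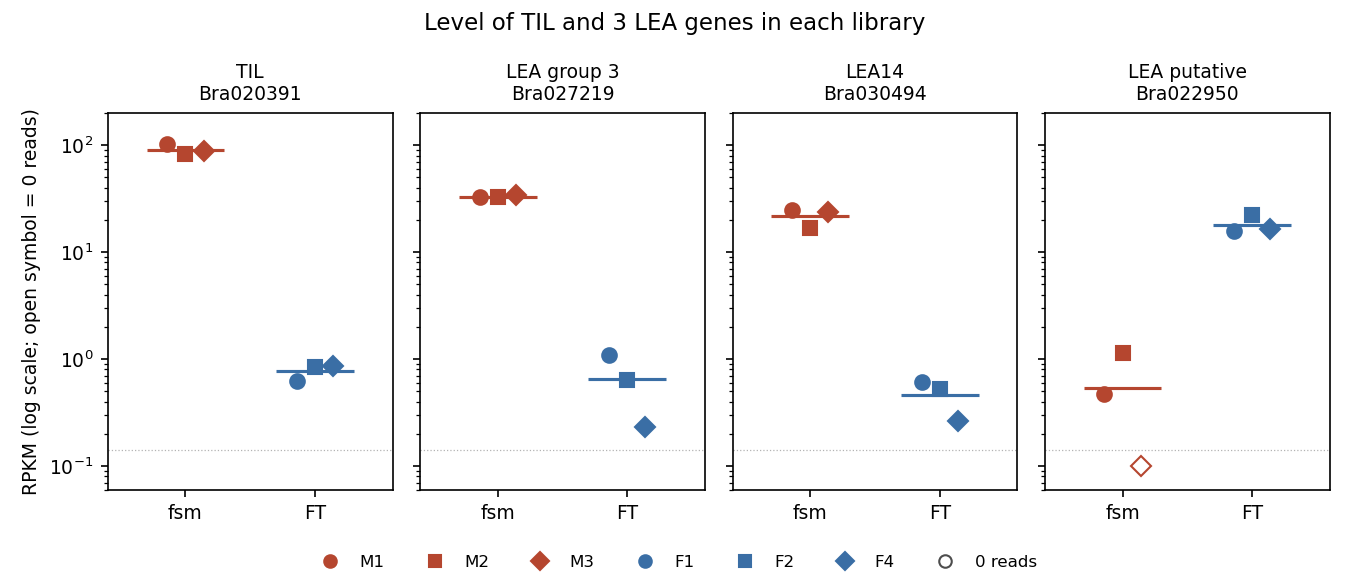
RPKM of *TIL*, *Bra027219* (group 3 LEA), *Bra030494* (LEA14) and *Bra022950* (putative LEA) in each library on a log axis, *fsm* on the left and ‘FT’ on the right of each panel. Points are libraries, horizontal lines are means of 3 libraries, and the open symbol under the dotted line is the M3 library with 0 reads of *Bra022950*. The first 3 genes are higher in every *fsm* library, and *Bra022950* is lower in every *fsm* library.

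The plot of RPKM by library shows that the order of the 4 genes differed between the lines. In *fsm*, the order by RPKM was *TIL*, *Bra027219*, *Bra030494* and *Bra022950*, and the libraries of neighbours in that order did not overlap. In ‘FT’, *Bra022950* stood highest at 15.7 to 22.3 RPKM, and the other 3 genes reached at most 1.08 RPKM. *TIL*, *Bra027219* and *Bra030494* followed in ‘FT’ by mean RPKM. *TIL* at 0.630 to 0.854 RPKM lay above *Bra030494* at 0.263 to 0.604 RPKM without overlap, on 12 to 16 and 3 to 7 reads, whereas *Bra027219* overlapped both, so its place in the order cannot be given from these libraries.

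Together, the 4 genes had 159, 133 and 146 RPKM in M1, M2 and M3, against 17.99, 24.3 and 17.7 RPKM in F1, F2 and F4. *TIL* made up 63.7, 61.9 and 60.5% of that sum in the *fsm* libraries and 3.50, 3.49 and 4.84% in the ‘FT’ libraries. *Bra022950* made up at most 0.858% of the sum in *fsm* and 87.1 to 92.4% in ‘FT’. Summed in this way, nearly all of the RPKM of these genes came from *Bra022950* in wild-type buds, and nearly all of it came from the other 3 genes in mutant buds. Within *fsm*, the ratio of RPKM of *TIL* over *Bra027219* stayed between 2.53 and 3.11, and that of *TIL* over *Bra030494* between 3.73 and 4.84. In ‘FT’ these ratios spread over 0.581 to 3.68 and 1.04 to 3.24, on few reads.

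The genes also differed in how much they varied between the libraries of a line. The coefficient of variation (SD as a percentage of the mean) of the normalized count of *TIL* in *fsm* was 11.9%, against 2.32% from counting alone and a median of 5.28% over the 1847 genes with a mean within 20% of that of *TIL*. *Bra030494* was more variable still in *fsm*, at 19.8%, with a median of 8.29% over genes of like mean, and its M1 library had 1.48 times the normalized count of M2. M1 was the highest and M2 the lowest *fsm* library for both *TIL* and *Bra030494*. *Bra027219* varied less in *fsm*, by 1.86%, than the 4.02% that counting alone gives. In ‘FT’, the coefficient was 16.5% for *TIL* and 38.3% for *Bra030494*, each below its counting value of 25.6% and 42.5%, and 65.5% for *Bra027219*, above its counting value of 29.2%. For *Bra022950* it was 106% in *fsm*, on 10 reads, and 19.9% in ‘FT’. With 3 libraries a line these coefficients are themselves imprecise, and they were not tested. The counting values treat reads as independent and are too low where both ends of a fragment were counted.

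The deposited files also give the share of each gene's length that is covered by at least 1 read. Reads covered 75.73, 75.87 and 75.73% of *TIL* in M1, M2 and M3, against 62.93, 72 and 73.6% in F1, F2 and F4. The share in *fsm* was thus nearly the same in each library and left 181 to 182 of the 750 bases without a read, although 1753 to 2237 reads lay on the gene. Among genes with read numbers and lengths within 20% of those of *TIL*, the median covered share was 99.4 to 99.5% in the *fsm* libraries, and only 1.98 to 2.86% of those 252 to 300 genes had a lower share than *TIL*. In ‘FT’, where *TIL* had 12 to 16 reads, genes of like length and read number had a median covered share of 69.3 to 81.7%, and 24.9 to 35.2% of them lay below *TIL*. Which bases are uncovered cannot be read from the files, and the reason was not tested. RPKM divides by the full 750 bases, so comparisons of the RPKM of *TIL* with other genes include the bases without reads. How far this lowers the level of *TIL* beside other genes was not tested.

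**Figure D2:**
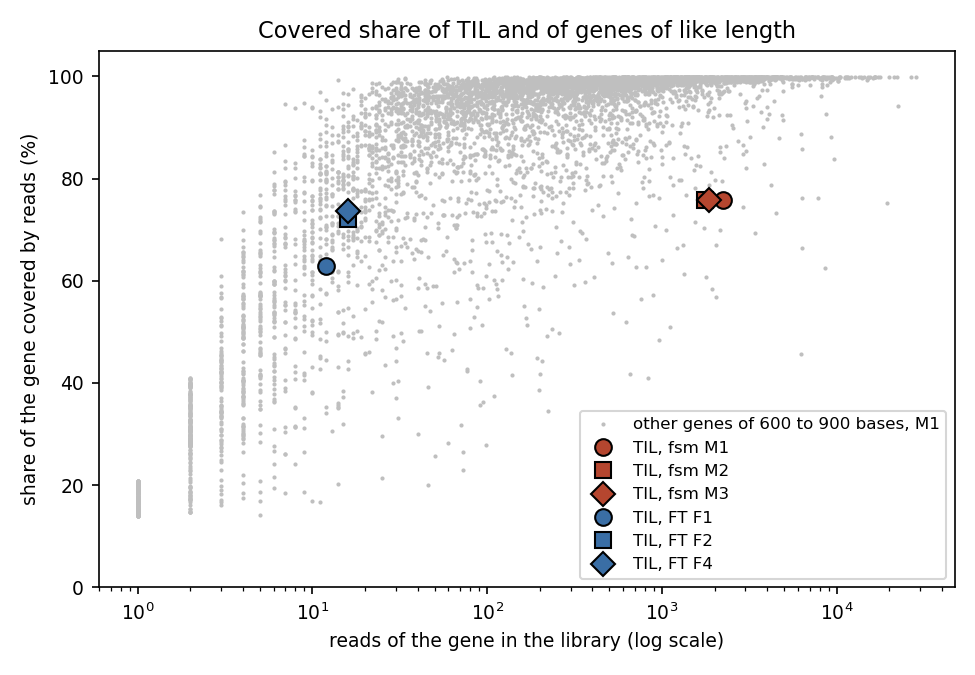
Covered share of the gene (percent, linear axis) against reads of the gene (log axis) for *TIL* in each library and, as grey points, for the other genes of 600 to 900 bases in library M1. Among the 1184 such genes with at least 1000 reads in M1 the median covered share is 99.55%, and the 3 *fsm* points of *TIL* lie at 75.73 to 75.87%, with 20 other genes at or below the share of *TIL* in M1.

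The plot of covered share against reads sets *TIL* apart from most genes of its length at its depth in *fsm*, but not at its depth in ‘FT’. For the LEA genes the covered share was nearer to that of genes of like length and read number, of which 16.7 to 51.0% lay below *Bra027219* and 25.5 to 55.2% below *Bra030494* in *fsm*. *Bra027219* was covered over 95.07 to 98.84% of its length in *fsm* and over 46.81 to 90.87% in ‘FT’, where its reads were few. *Bra030494* was covered over 95.39 to 97.59% in *fsm* and over 52.85 to 55.26% in ‘FT’. *Bra022950* was covered over 66.67 and 80.56% in the *fsm* libraries with reads and over 99.54% in each ‘FT’ library.

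Gene descriptions were at hand for DEGs of the study only, so LEA genes with smaller or no changes were not examined. The descriptions name 5 more LEA genes besides the 3 above. All 5 were higher in *fsm*, and 3 of them had no more than 2 reads in any ‘FT’ library while the others had none. They were chosen on these samples, so their direction is no independent evidence. Over the 8 LEA genes, 7 passed the DEG threshold as higher and 1, *Bra022950*, as lower in *fsm*, and 2 of the 8 passed with limma on log2(RPKM + 1). Their median log2 fold change was 6.35, or 5.65 with the genes without ‘FT’ reads set at the bound given by 3 reads in each ‘FT’ library.

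Of the other LEA genes, *Bra005353*, described as a LEA group 1 domain protein, had the highest level. Its RPKM was 20.1, 20.7 and 23.6 in M1, M2 and M3, from 175, 175 and 197 reads, against 0, 0 and 2 reads in F1, F2 and F4. From summed reads the ratio of *fsm* over ‘FT’ was 252, with an exact 95% counting interval of 69.5 to 2089. This level in *fsm* was close to that of *Bra030494*, and the libraries of both genes overlapped. *Bra023278*, with the same description, had 56, 56 and 71 reads in *fsm* and 0, 0 and 2 in ‘FT’, a ratio of 84.4 (23.04 to 702). *Bra036021*, described as a LEA domain protein, had 87, 85 and 74 reads in *fsm* and 0, 0 and 2 in ‘FT’, a ratio of 113 (31.1 to 942). In all 3 genes the only ‘FT’ reads were those of library F4. These 2 reads a gene may be the ends of the same fragment. They also lie below the floor of 3 reads set for genes without ‘FT’ reads, so the 3 ratios are only rough.

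*Bra013489*, a LEA domain protein, and *Bra001603*, described as LEA-like, had no reads in ‘FT’. *Bra013489* had 26, 28 and 38 reads in M1, M2 and M3, at least 9.21-fold higher in *fsm* against a floor of 3 reads in each ‘FT’ library. *Bra001603* had 11, 13 and 12 reads in *fsm*, at least 3.60-fold higher against the same floor. Both were low in *fsm* also per length, at 1.16 to 1.77 RPKM for *Bra013489* and 0.609 to 0.742 RPKM for *Bra001603*. The 5 genes together had 30.5, 31.5 and 35.8 RPKM in the *fsm* libraries and 0, 0 and 0.574 RPKM in the ‘FT’ libraries, so their sum in *fsm* was near that of *Bra027219* alone.

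**Figure D3:**
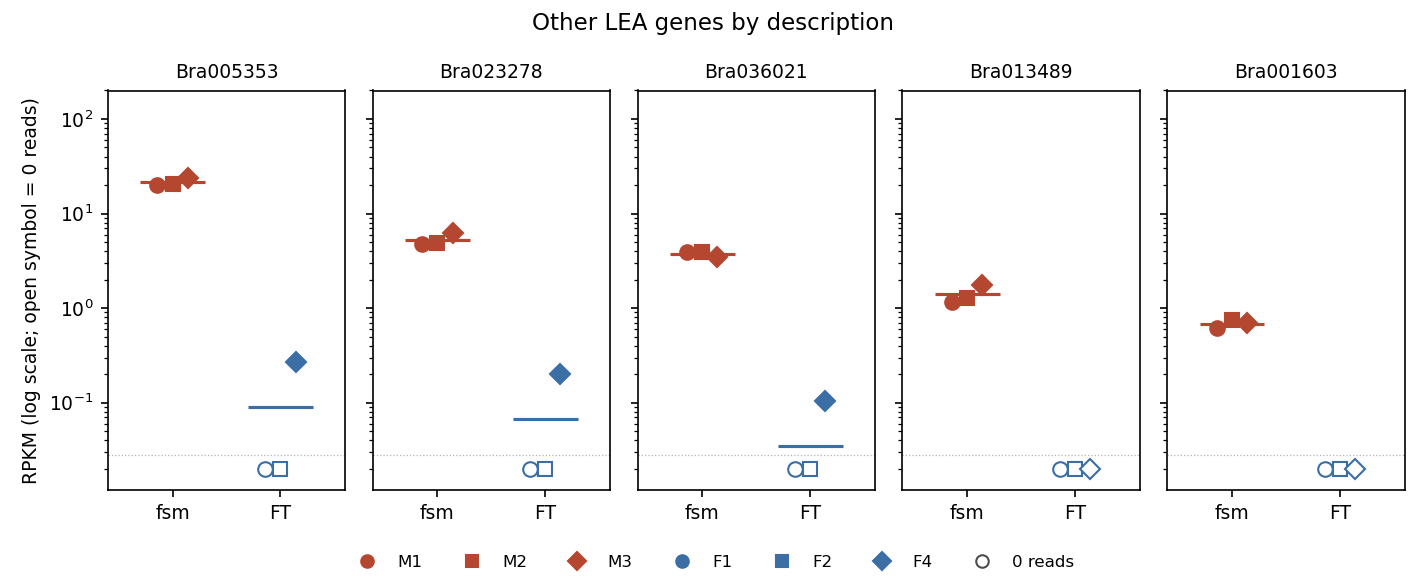
RPKM on a log axis of the 5 other genes that the study describes as LEA, *fsm* left and ‘FT’ right in each panel. Points are libraries, lines are means of 3 libraries, and open symbols under the dotted line are libraries with 0 reads. The 3 *fsm* libraries of *Bra005353* lie at 20.1 to 23.6 RPKM, and *Bra013489* and *Bra001603* have no reads in ‘FT’.

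The plot of the other LEA genes shows *fsm* libraries close together for each gene and ‘FT’ libraries at or near 0. Among the 7 genes described as LEA other than *Bra022950*, the highest level in any ‘FT’ library was the 1.08 RPKM of *Bra027219* in F1.

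Heat shock genes, whose proteins keep others from aggregating in heat, moved in the same direction as *TIL*. Of 34 genes described as heat shock proteins, 32 passed the DEG threshold as higher and 1 as lower in *fsm*, with a median log2 fold change of 7.55, or 7.10 with genes without ‘FT’ reads at their bound. *Bra038484*, at 0 reads in *fsm* and 11, 19 and 24 in ‘FT’, was the gene called lower, and *Bra012704*, at -3.86, missed the threshold; both were singled out after their values were seen. The list's summed level was 22598 to 23744 RPKM in *fsm* and 162 to 177 RPKM in ‘FT’. The most abundant was *Bra018383*, a class I small heat shock protein, at a mean RPKM of 3277 ± 115 in *fsm* and 34.1 ± 1.97 in ‘FT’ (SD, n = 3 each). *Bra006137*, a class II small heat shock protein, averaged 2739 ± 172 RPKM in *fsm* and 0.690 ± 0.222 in ‘FT’, and the *HSP70* gene *Bra038734* averaged 2510 ± 9.94 RPKM in *fsm* and 16.4 ± 0.188 in ‘FT’. This list was also taken from genes called on these samples, and its part in the differences of *TIL* and the LEA genes was not tested.

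The pollen and oleosin lists moved in the same direction as *Bra022950*. Oleosins coat oil droplets of seeds and of the pollen coat. All 22 pollen genes and all 7 oleosin genes passed the DEG threshold as lower in *fsm*, with medians of -4.29 and -4.87 on the log2 scale. Both lists were drawn from DEGs of the study on these samples, so passing the threshold follows largely from the choice. They share the pollen coat oleosin gene *Bra028695*. Only 4 oleosin genes passed with a prior count of 2, and 0 with limma on log2(RPKM + 1). The oleosins summed to 1.28 to 1.83 RPKM in *fsm* and 48.1 to 54.8 RPKM in ‘FT’. The pollen genes with the highest mean RPKM were the polygalacturonase gene *Bra001269*, which averaged 47.1 ± 2.08 RPKM in *fsm* and 823 ± 22.3 in ‘FT’, and the *VGD1* genes, which encode a pectin methylesterase of the pollen tube in *Arabidopsis*. *Bra000438* averaged 43.2 ± 3.34 RPKM in *fsm* and 791 ± 14.4 in ‘FT’, and *Bra040474* averaged 23.5 ± 0.370 in *fsm* and 490 ± 16.2 in ‘FT’. Neither list's part in the difference of *Bra022950* was tested.

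**Figure D4:**
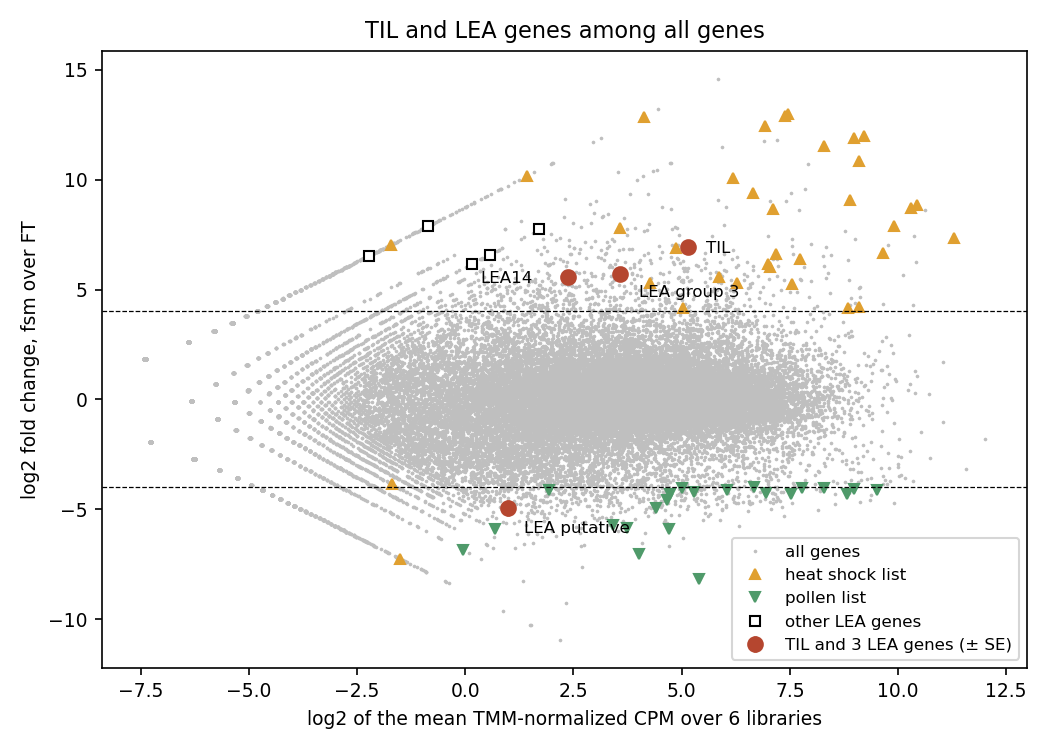
Log2 fold change of *fsm* over ‘FT’ against the log2 mean normalized CPM (count per 1000000 reads) over the 6 libraries. Grey points are all genes, red points are *TIL* and the 3 LEA genes, squares the 5 other LEA genes, and triangles the heat shock and pollen lists. Bars on the red points, marked SE in the plot and mostly smaller than the symbol, were calculated back from the edgeR test statistic. They are smaller than counting error alone and do not measure the precision of the fold change. Dashed lines mark the DEG threshold of 4. By fold change, *TIL* at 6.93 is in the range of the lower heat shock genes and *Bra022950* at -4.95 in that of the pollen genes. Most of the pollen genes have a higher mean level than *Bra022950*.

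The plot of fold changes against mean level places the genes among all others. Ranked by fold change, *TIL* was 189th, *Bra027219* 456th and *Bra030494* 503rd of all increases, and *Bra022950* was 397th of all decreases.

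Genes with the most similar values were sought by the Euclidean distance of log2(RPKM + 0.1) over the 6 libraries, where the 2 lines account for most of the spread. Closest to *TIL* were *Bra000876*, described as glutathione S-transferase 4 (distance 0.453, mean RPKM 90.8 in *fsm* and 0.724 in ‘FT’), *Bra011529*, described as the redox-responsive transcription factor RRTF1 (distance 0.599), and *Bra029869*, a RING finger protein (distance 0.754). Closest to *Bra027219* were *Bra027431*, described as a chaperonin (distance 0.894, mean RPKM 40.4 in *fsm* and 0.534 in ‘FT’), *Bra027169*, described as the histidine phosphotransfer protein AHP4 (0.898), and *Bra011443*, of unknown description (1.003). Closest to *Bra030494* were *Bra010383*, described as the ethylene-responsive factor ERF054 (distance 0.841, mean RPKM 24.8 in *fsm* and 0.588 in ‘FT’), *Bra022607*, a metal ion binding protein (0.881), and *Bra008806*, described as the cell wall enzyme XTR6 (0.939). *Bra022950* had no gene as close, the nearest being *Bra006719*, described as the actin ACT12 (distance 1.93, mean RPKM 0.383 in *fsm* and 17.0 in ‘FT’), the oleosin gene *Bra022333* (2.12), and *Bra029807*, a GDSL lipase (2.30). The *fsm* values of *Bra022950* rest on 3, 7 and 0 reads in M1, M2 and M3, so its distances include much counting noise.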

How the data were processed

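The authors aligned clean reads with SOAPaligner/SOAP2 to version 1.5 of the reference genome, allowing at most 5 mismatches, and deposited for each library the count of reads per gene, headed as unique reads, the coverage (percentage of the gene with reads) and the RPKM. The deposited RPKM equal count per coding length and library total. The counts of each library sum to more than the mapped reads that the study lists for it, for a reason not given in the sources used here, and were used as deposited. Genes missing from a library's list were taken as 0 reads. Whether near-identical gene copies shared reads was not examined. Counts were fitted in R 4.3.3 with edgeR 4.0.16 (TMM, quasi-likelihood test, Benjamini-Hochberg adjustment over 35616 genes, all 6 libraries, no filter). The p-values rest only on these libraries, through counting variance and a spread between libraries that is shared in part across genes. Fold changes use edgeR's default prior count. Alternatives used DESeq2 1.42.0 size factors and test, total counts, a filter, a prior count of 2, limma 3.58.1 on log2(RPKM + 1) or log2(RPKM + 0.1), each library left out and a replicate block. The code was tested on simulated data. The floor of 3 reads equals 0.102 to 0.120 CPM. The genes and lists were chosen with earlier results of these data known, and the lists follow the study's descriptions of DEGs. Named genes are the 4 genes, the lists' genes (the top 3 by RPKM for heat shock and pollen) and the 3 nearest genes of each. Chromosome positions and further sequences are not given, since the available reference table follows another assembly and links 1 gene of the files.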

Additional observations from a re-analysis of the deposited data

How the results depend on the processing

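The direction of *TIL*, *Bra027219*, *Bra030494* and *Bra022950* was the same under all alternatives run. On log2(RPKM + 1) with limma, whose added 1 exceeds most ‘FT’ levels of the first 3, the log2 fold changes were 5.69, 4.40, 3.95 and -3.69, so that the last 2 fell below the threshold of 4. Leaving out each library gave 6.80 to 7.002 for *TIL*, 5.32 to 6.30 for *Bra027219*, 5.32 to 5.82 for *Bra030494* and -6.04 to -4.39 for *Bra022950*. The number of DEGs was 1873, or 1156 with a prior count of 2, 497 with limma on log2(RPKM + 1) and 1177 on log2(RPKM + 0.1), and 1708 to 1818 with a library left out. With a prior count of 2, 4 oleosin and 2 ovule and pistil genes were called. With log2(RPKM + 1), 2 LEA, 2 dehydration and 0 oleosin and 0 ovule and pistil genes were called, and with log2(RPKM + 0.1) 5 dehydration and 2 ovule and pistil genes. With a library left out, 8 LEA, 6 to 8 dehydration, 33 to 34 heat shock, 5 to 7 oleosin, 3 to 4 ovule and pistil and 20 to 22 pollen genes were called, and 12052 to 12572 genes at a log2 fold change of 1 or more in either direction, against 13069 with all libraries. The replicate numbers are shared by only 2 libraries a line, and no source states a pairing. Their deviations correlated at -0.0634 and 0.0788. With a block for the replicate number, fitted to these 4 libraries, there were 1750 DEGs and 7 called LEA genes, and the log2 fold changes were 7.02 for *TIL*, 5.31 for *Bra027219*, 5.26 for *Bra030494* and -4.46 for *Bra022950*. A wider list of LEA and lipocalin genes from reference annotation could not be built, so its alternatives were not run. Low read numbers limit the ‘FT’ values of *TIL*, *Bra027219* and *Bra030494* and the *fsm* value of *Bra022950*.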

Other observations

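Genes of dehydration and abscisic acid, the hormone under which many LEA genes are known to be expressed, went both ways. Of the 8 genes so described, 5 were called higher and 3 lower in *fsm*, with a median log2 fold change of 4.52, or 3.17 with the gene without ‘FT’ reads at its bound. The list was drawn from DEGs of the study on these samples, and 2 of its genes were called with limma on log2(RPKM + 1). *RD26* (*Bra019052*), a transcription factor induced by drying in *Arabidopsis*, averaged 103 ± 8.95 RPKM in *fsm* and 5.60 ± 0.327 RPKM in ‘FT’ (SD, n = 3 each). *CYP707A4* (*Bra022407*) and *CYP707A3* (*Bra021965*), whose enzymes break abscisic acid down, averaged 75.0 ± 2.30 and 39.4 ± 1.39 RPKM in *fsm*, against 2.37 ± 0.343 and 1.48 ± 0.210 RPKM in ‘FT’. *AHG1* (*Bra029160*), a phosphatase of abscisic acid signalling, had 14, 9 and 19 reads in *fsm* and none in ‘FT’. In the other direction, the dehydration-responsive family gene *Bra037916* averaged 1.36 ± 0.256 RPKM in *fsm* and 34.4 ± 0.466 RPKM in ‘FT’, and the early-responsive-to-dehydration genes *Bra000855* and *Bra007076* had log2 fold changes of -5.08 and -4.42.

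Of 4 genes described for ovules or pistils, 3 were called higher and 1 lower in *fsm*, again from a list chosen on these samples, of which 2 were called with a prior count of 2 and 0 with limma on log2(RPKM + 1). *EDA39* (*Bra011409*), named for arrested embryo sacs in *Arabidopsis*, averaged 7.29 ± 0.825 RPKM in *fsm* and 0.0745 ± 0.0316 RPKM in ‘FT’ (SD, n = 3 each), against 90.7 RPKM for *TIL* in *fsm*. *HEC1* (*Bra012128*) had 57, 43 and 42 reads in M1, M2 and M3, against 2, 0 and 0 in F1, F2 and F4. *PFS2* (*Bra026791*) had 13, 28 and 20 reads in M1, M2 and M3, against 0, 1 and 2 in F1, F2 and F4. *EDA2* (*Bra037239*) had no reads in *fsm* and 10, 19 and 8 reads in F1, F2 and F4.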
